A study of Mus musculus with 12 samples.

Results

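Reactive gliosis, the response of retinal Muller glia and astrocytes to injury, was followed here through 8 genes in mouse retinas exposed to raised intraocular pressure (IOP). The genes were Gfap, Vim, Nes, S1pr3, Cd44, Ptx3, Emp1 and Tm4sf1, taken by symbol from tables of 25124 genes. All 8 were present in both tables and were above 0 in all 12 libraries. The study used bulk retinas of wild-type C57BL/6J mice and sequenced poly(A) RNA in 6 groups of 2 libraries. In 4 groups (the single-IOP series) the mice were 3 or 18 months old, and retinas were collected 2 days after a single elevation to 30 mmHg lasting 1 h (3mo IOP, 18mo IOP) or were the untreated contralateral retinas (3mo control, 18mo control). In the other two groups (the repeated series) mice that were 3 months old at the outset had received 4 such elevations at intervals of 2 weeks, and retinas were taken 2 days after the last of them (4xIOP) or from the contralateral eye (4xIOP control). Pressure was raised by infusing salt solution through a needle in the anterior chamber, the control eyes came from animals whose other eye was treated, and the labels do not say which libraries share an animal. The 3 questions put to the 8 genes were what age did in untreated eyes, what IOP did at each age, and what repeated IOP did in young eyes.

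Muller glia span the whole retina, and astrocytes lie in the nerve fibre layer around the ganglion cell axons and vessels. When the retina is stressed, both remodel their intermediate filaments, the cytoskeletal cables built from glial fibrillary acidic protein, vimentin and nestin, and change the receptors and secreted proteins at their surface. Gfap is low in resting Muller glia and is the usual marker of their reactive state, whereas vimentin is made by resting Muller glia too. Outside glia, nestin is also made by growing vessels, Cd44 by leukocytes, Emp1 by epithelia and Tm4sf1 by endothelium. This list is not complete and does not cover Vim, S1pr3 and Ptx3. A bulk library therefore sums all these sources, and more cells of a type cannot be told apart from more RNA per cell.

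The DNA just before the start of a gene is shown for the 2 genes that passed the test after IOP in most comparisons (Gfap and Cd44), for the most abundant member (Vim) and for the member whose libraries differed most within a group in 5 of the 6 groups (Emp1). Each line gives 250 bases from the RefSeq promoter table (GRCm38.p6), 5′ to 3′ on the strand of the gene, and ends at the base before the start. Capitals mark matches to 4 motifs searched on both strands, TTCNNNGAA (STAT), TGANTCA (AP-1), GGAATG (TEAD) and the usual degenerate NF-kB consensus. The windows lay at chr11:102897201-102897450 (minus strand) for Gfap, chr2:102901666-102901915 (minus strand) for Cd44, chr2:13574061-13574310 (plus strand) for Vim and chr6:135362681-135362930 (plus strand) for Emp1.
Gfap: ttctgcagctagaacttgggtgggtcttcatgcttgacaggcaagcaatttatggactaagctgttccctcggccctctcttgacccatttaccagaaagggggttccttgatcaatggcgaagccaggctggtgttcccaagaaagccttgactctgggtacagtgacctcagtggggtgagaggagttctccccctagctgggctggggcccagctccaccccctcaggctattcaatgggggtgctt
Cd44: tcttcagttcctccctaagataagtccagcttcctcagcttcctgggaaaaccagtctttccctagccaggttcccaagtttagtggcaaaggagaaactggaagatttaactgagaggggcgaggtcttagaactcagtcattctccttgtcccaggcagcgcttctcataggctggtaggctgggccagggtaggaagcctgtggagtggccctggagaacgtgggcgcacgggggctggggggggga
Vim: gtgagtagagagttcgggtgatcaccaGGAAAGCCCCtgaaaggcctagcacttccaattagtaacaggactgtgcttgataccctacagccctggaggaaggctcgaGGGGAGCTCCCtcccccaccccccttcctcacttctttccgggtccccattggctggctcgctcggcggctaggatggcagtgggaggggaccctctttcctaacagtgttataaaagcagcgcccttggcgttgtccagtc
Emp1: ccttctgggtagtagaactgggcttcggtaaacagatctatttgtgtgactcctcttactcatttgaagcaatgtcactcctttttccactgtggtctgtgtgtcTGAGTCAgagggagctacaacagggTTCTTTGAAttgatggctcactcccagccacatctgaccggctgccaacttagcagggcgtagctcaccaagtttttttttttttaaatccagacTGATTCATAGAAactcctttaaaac
Emp1 held 2 STAT matches, starting at -120 and -22, and 2 AP-1 matches, starting at -145 and -25, of which the last overlaps the STAT match at -22. Vim held NF-kB matches starting at -223 (minus strand), -142 and -141, of which the last pair overlap, and Tm4sf1 held one at -28. A narrower NF-kB motif, the one first chosen, matched only at -223 in Vim and in 1.41% of promoters. The other 5 genes held no match in this window, which says only that these letters are not there. Of 32851 promoters of this length, 7.02% held the STAT letters, 6.75% the AP-1 letters, 12.6% the TEAD letters and 7.25% the NF-kB consensus.

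The level of each gene is given as FPKM, reads scaled to the length of its listed transcript and to the total tags of the library, so levels of different genes can be set side by side. Vim was the most abundant of the 8 genes in each of the 6 groups, with group means between 28.4 and 178 FPKM. In 3mo control retinas the means of the other 7 genes lay between 0.155 FPKM (Nes) and 8.28 FPKM (Emp1). Gfap was the gene with the next highest mean in all 3 IOP groups, at 28.1 ± 4.45 FPKM (SD, n = 2) in 3mo IOP, 59.4 ± 39.6 in 18mo IOP and 39.4 ± 9.52 in 4xIOP. Behind the lowest values stood few reads, as few as 12 for Emp1 and for Ptx3 and 26 for Nes, while Gfap rested on 230 to 14075 reads and Vim on 1942 to 24544.

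**Figure D1:**
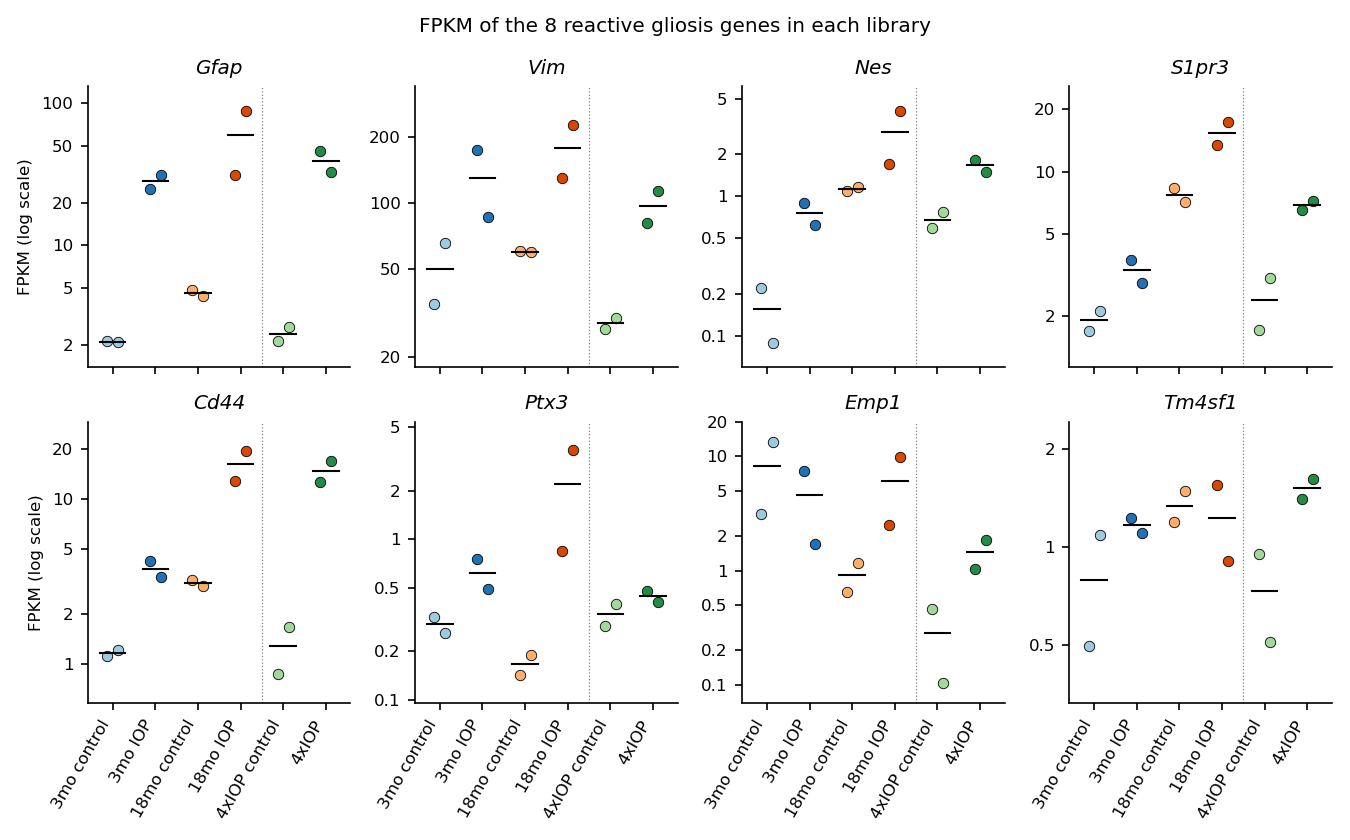
FPKM (log scale) of each gene in the 12 libraries, by group. Points are libraries and bars are group means; the dotted line separates the single-IOP series from the repeated series. The Gfap points of the 3 IOP groups, from 25.0 to 87.5 FPKM, all lie above those of the control groups, from 2.10 to 4.87 FPKM.

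Differences were tested on log2(FPKM + 0.5) with limma, and calls needed both an adjusted p (Benjamini-Hochberg, over all tested genes) no higher than 0.05 and a change of 1 or more, up or down, on the log2 scale. After 4 elevations, 5 of the 7 tested members were called higher (Gfap, Cd44, Vim, S1pr3 and Emp1) and none lower (0.693% of all genes), against 5.45% of all tested genes called higher (748 genes and 95 lower, or 500 and 142 with quantile normalization). Emp1 was tested there only because the 4xIOP libraries lifted its mean over the filter of 0.5 FPKM, and among genes that pass without those libraries 4 of 6 members and 2.94% of all genes were called higher. After a single elevation, 1 of 8 was called higher at 3 months (Gfap, against 0.568% of all tested genes) and 2 of 8 at 18 months (Gfap and Cd44, against 0.117%), with none lower (0.00728% of all genes at either age). Among genes that pass without the 18mo IOP libraries, 2 of 7 members and 0.118% of all genes were called higher at 18 months. Between untreated retinas of 18 and 3 months, 3 of 8 were called higher (S1pr3, Nes and Cd44) and 1 lower (Emp1), where 11.6% of all tested genes were called higher and 11.6% lower (1595 and 1590 genes, or 1059 and 1968 with median-of-ratios size factors). The same 3 genes were called higher between the IOP retinas of 18 and 3 months, against 10.2%, and none was called lower (11.6%). Among genes that pass without the 18mo IOP libraries, these were 3 of 7 members, against 9.96%. The comparisons within the single-IOP series share libraries, so their values are not independent of each other. The repeated series had its own controls and its own fit, and repeated elevation was not tested against a single elevation.

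The libraries of the 2 groups did not overlap, with the treated group above, for 7 of 8 members at 3 months, where 28.6% of all tested genes did so, and the exception was Emp1. At 18 months this share of all tested genes was 36.5% and after 4 elevations 27.7%. Ptx3 passed the filter in the single-IOP series only through the 18mo IOP libraries and did not pass it in the repeated series, and Emp1 passed it there only through the 4xIOP libraries, so they are left out of the next counts where this applies. Among genes that pass without the treated group, 6 of 7 members did not overlap at 18 months (the exception was Tm4sf1), against 36% of all such genes, and 6 of 6 after 4 elevations, against 24.8%. The median log2 fold change was 0.80 over all 8 members at 3 months, 1.50 over these 7 at 18 months and 1.56 over these 6 after 4 elevations, sets that differ between the comparisons, where the medians of all such genes were 0.13, 0.09 and 0.08. Rescaling the libraries by median-of-ratios size factors lowered the median of all genes by 0.19 at 3 months, by 0.12 at 18 months, by 0.12 after 4 elevations and by 0.15 between the control ages.

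**Figure D2:**
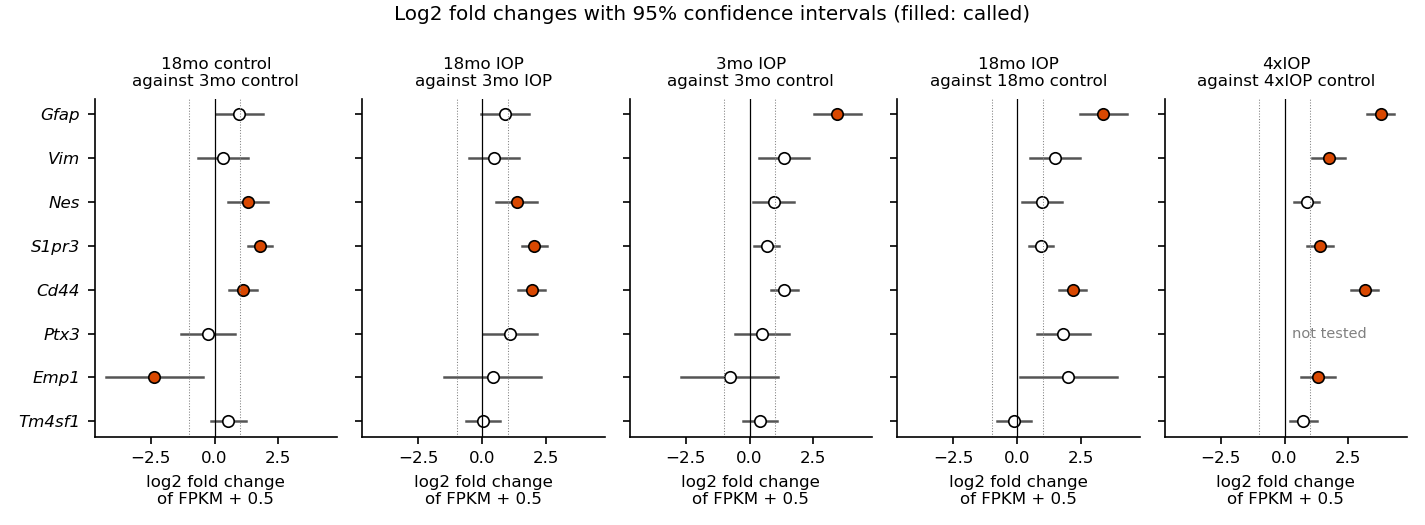
Log2 fold changes of FPKM + 0.5 with 95% confidence intervals for the 8 genes in 5 comparisons. Filled points were called, open points were not, and dotted lines mark a change of 1 in either direction. Gfap lies between 3.37 and 3.76 in the 3 IOP comparisons. Cd44 lies at 1.36 at 3 months, and at 3.14 after 4 elevations in a separate series with its own controls.

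Gfap, the filament gene of astrocytes and reactive Muller glia (chr11:102887336-102897200, minus strand, 9 exons, mm10), was the member with the largest change after IOP in each of the 3 comparisons. It stood at 2.13 and 2.10 FPKM in the 3mo control libraries and at 25.0 and 31.3 FPKM after a single elevation at that age. At 18 months the control libraries held 4.87 and 4.39 FPKM and the IOP libraries 31.4 and 87.5 FPKM. The repeated series had control values of 2.14 and 2.69 FPKM and 4xIOP values of 46.1 and 32.7 FPKM. Every IOP library was above every control library, and the pair of 18mo IOP libraries was the most unequal. The log2 fold change was 3.44 ± 0.40 (SE) at 3 months (adjusted p = 0.0271), 3.37 ± 0.40 at 18 months (adjusted p = 0.0443) and 3.76 ± 0.24 after 4 elevations (adjusted p = 6.03e-07). The ratios of mean FPKM were 13.3, 12.8 and 16.3. The difference between these responses at 18 and 3 months was -0.07 (95% interval -1.38 to 1.23, adjusted p = 0.999916), and the interval allows a difference of more than 1 in either direction. With age alone Gfap stood higher in both 18mo control libraries than in both 3mo control libraries, by 0.97 ± 0.40 on the log2 scale, and was not called (adjusted p = 0.0774). Between the IOP groups of both ages the difference was 0.90 ± 0.40 (adjusted p = 0.101), and it was called without the 18mo IOP replicate 1 (1.63, adjusted p = 0.00821).

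The Gfap call after a single elevation depended on single libraries and on the processing. At 3 months it was lost without control replicate 1 (3.45, adjusted p = 0.137), IOP replicate 1 (3.60, adjusted p = 0.133) or IOP replicate 2 (3.29, adjusted p = 0.0907). At 18 months it was lost without control replicate 1 (3.44, adjusted p = 0.299) or control replicate 2 (3.30, adjusted p = 0.311), and the change was 2.64 without IOP replicate 2 and 4.10 without IOP replicate 1. The 18mo call was also lost with a replicate block (adjusted p = 0.0935), median-of-ratios size factors (adjusted p = 0.0874), voom, limma's method for counts, on the recovered reads (adjusted p = 0.0942) or a pseudocount of 0.1 (adjusted p = 0.0587). It was lost as well with quantile normalization, no filter or only the 2 groups compared. At 3 months the call was lost with voom (adjusted p = 0.0605), quantile normalization (adjusted p = 0.0564) or no filter. The call after 4 elevations held without each library in turn, with changes between 3.52 and 4.01. Set against the summed FPKM of 12 Muller glia marker genes, Gfap amounted to 0.258% and 0.175% in 3mo control and to 1.92% and 3.28% in 3mo IOP libraries. At 18 months this share was 0.218% and 0.244% in control and 0.942% and 2.78% in IOP libraries. It was 0.205% and 0.235% in 4xIOP control and 4.10% and 2.65% in 4xIOP libraries. Gfap was thus higher in IOP libraries relative to this sum as well as in FPKM. The sum includes Apoe, at up to 1513 FPKM, and Glul, at up to 901 FPKM. The part of Muller glia content in the Gfap change was not tested.

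Vim, whose product vimentin forms the constitutive filaments of Muller glia (chr2:13574311-13582826, plus strand), started from a high level and changed less. The 3mo control libraries held 34.7 and 65.6 FPKM and the 3mo IOP libraries 174 and 85.9 FPKM. At 18 months the control libraries held 60.5 and 59.6 FPKM, below the 129.5 and 226 FPKM of the IOP libraries. In the repeated series they were 26.8 and 30.0 FPKM in control and 80.6 and 114 FPKM in 4xIOP libraries. IOP libraries were above the controls of their own age and series in all 3 comparisons, and at 3 months the gap between the control libraries was wider than that between the higher of them and the lower IOP library. Vim was called after 4 elevations (1.74 ± 0.30, adjusted p = 0.00191), but not without control replicate 1 (1.66, adjusted p = 0.233) or control replicate 2 (1.82, adjusted p = 0.157). The changes after a single elevation were 1.35 ± 0.43 at 3 months (adjusted p = 0.322) and 1.50 ± 0.43 at 18 months (adjusted p = 0.224). Between the untreated ages the libraries overlapped, and the difference of 0.33 ± 0.43 (adjusted p = 0.548) became -0.13 without the 3mo control replicate 1. The ratio of Gfap to Vim FPKM lay between 0.0319 and 0.0896 in the 6 control libraries and between 0.144 and 0.572 in the 6 IOP libraries, so the make-up of the filament transcripts shifted towards Gfap in every IOP library. The part of cells other than glia in the Vim values and in this ratio was not tested.

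Nes, which encodes nestin (chr3:87971093-87980451, plus strand), was a low transcript that was higher at 18 months. It stood at 0.220 and 0.089 FPKM in 3mo control libraries and at 1.08 and 1.17 FPKM in 18mo control libraries. After a single elevation the values were 0.896 and 0.620 FPKM at 3 months and 1.71 and 4.11 FPKM at 18 months. The repeated series had 0.592 and 0.764 FPKM in control and 1.82 and 1.50 FPKM in 4xIOP libraries. Every 18mo library was above every 3mo library of the single-IOP series, whether treated or not. The difference between the control ages was 1.32 ± 0.34 (adjusted p = 0.0176), and the ratio of mean FPKM, 7.28, was larger because the added 0.5 FPKM compresses low values. That call was lost without the 3mo control replicate 2 (1.17, adjusted p = 0.0890), the 18mo control replicate 1 (1.36, adjusted p = 0.0719) or the 18mo control replicate 2 (1.28, adjusted p = 0.0868). Between the IOP retinas of both ages the difference was 1.35 ± 0.34 (adjusted p = 0.0182), and it was lost without the 3mo IOP replicate 1 (1.51, adjusted p = 0.0717), the 3mo IOP replicate 2 (1.19, adjusted p = 0.101) or the 18mo IOP replicate 2 (0.82, adjusted p = 0.0638). After IOP, Nes was not called at 3 months (0.94 ± 0.34, adjusted p = 0.433) or at 18 months (0.97 ± 0.34, adjusted p = 0.354). After 4 elevations it had an adjusted p of 0.0303 with a change of 0.87 ± 0.23, below the limit of 1.

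S1pr3, a receptor for the lipid mediator sphingosine 1-phosphate (chr13:51408618-51422797, plus strand), was higher in all 18mo libraries, treated or not. The 3mo control libraries held 1.70 and 2.12 FPKM and the 18mo control libraries 8.37 and 7.12 FPKM. In the IOP libraries it stood at 3.75 and 2.90 FPKM at 3 months and at 13.5 and 17.3 FPKM at 18 months. In the single-IOP series the highest 3mo library was below the lowest 18mo library, and within each age both IOP libraries were above both controls. The change with age was 1.78 ± 0.21 between controls (adjusted p = 0.00417) and 2.05 ± 0.21 between IOP retinas (adjusted p = 0.00206), and both calls held without each library in turn. A single elevation gave 0.66 ± 0.21 at 3 months (adjusted p = 0.321) and 0.94 ± 0.21 at 18 months (adjusted p = 0.143), neither called. In the repeated series S1pr3 went from 1.72 and 3.06 FPKM in control to 6.53 and 7.22 FPKM in 4xIOP libraries, a change of 1.39 ± 0.23 (adjusted p = 0.0017). That call was lost without control replicate 1 (1.05, adjusted p = 0.0705), 4xIOP replicate 1 (1.46, adjusted p = 0.0850) or 4xIOP replicate 2 (1.32, adjusted p = 0.129).

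Cd44, the cell surface receptor for hyaluronan (chr2:102811142-102901665, minus strand), was higher both with age and after IOP. Control libraries held 1.12 and 1.21 FPKM at 3 months and 3.23 and 2.96 FPKM at 18 months. After a single elevation the values were 4.21 and 3.34 FPKM at 3 months and 12.8 and 19.7 FPKM at 18 months. The repeated series had 0.864 and 1.68 FPKM in control and 12.7 and 17.0 FPKM in 4xIOP libraries. The 3mo IOP libraries lay just above the 18mo control libraries, and the 18mo IOP libraries stood above both. The age difference was 1.11 ± 0.23 between controls (adjusted p = 0.00909), which was lost without the 18mo control replicate 1 (1.06, adjusted p = 0.0577) or replicate 2 (1.17, adjusted p = 0.0551) and fell under the limit of 1 with median-of-ratios size factors (0.99) or quantile normalization (0.90), and 1.95 ± 0.23 between IOP retinas (adjusted p = 0.00271), which held without each library in turn. After a single elevation Cd44 was called at 18 months (2.19 ± 0.23, adjusted p = 0.0443) and missed the threshold at 3 months (1.36 ± 0.23, adjusted p = 0.0531). The 18mo call was lost without control replicate 1 (change 2.24), control replicate 2 (2.14) or IOP replicate 2 (1.89). It was also lost with a replicate block (adjusted p = 0.127), median-of-ratios size factors (adjusted p = 0.0874), voom (adjusted p = 0.0942), a pseudocount of 0.1 (adjusted p = 0.0587), no filter or only the 2 groups compared. The response was larger at 18 than at 3 months by 0.83 ± 0.33 (95% interval 0.08 to 1.58), with an unadjusted p of 0.0335 and an adjusted p of 0.999916, so no difference between the ages was called. After 4 elevations the change was 3.14 ± 0.25 (adjusted p = 2.96e-06), called without each library in turn with values between 2.81 and 3.60 over all alternatives.

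Ptx3, a secreted pentraxin of innate immunity (chr3:66219887-66225806, plus strand), was among the lowest members, and it overlaps Veph1 on the other strand, which strand-specific counting separates. The 3mo control libraries held 0.327 and 0.262 FPKM and the 18mo control libraries 0.143 and 0.189 FPKM. After a single elevation it stood at 0.749 and 0.488 FPKM at 3 months and at 0.845 and 3.61 FPKM at 18 months. The high value came from the 18mo IOP replicate 2, the library that also held the higher level of Gfap, Vim, Nes, S1pr3, Cd44 and Emp1. No change of Ptx3 was called, with 0.48 ± 0.46 at 3 months (adjusted p = 0.948), 1.82 ± 0.46 at 18 months (adjusted p = 0.178) and -0.25 ± 0.46 between the control ages (adjusted p = 0.669). Without the 18mo IOP replicate 1, the 18mo change became 2.62 and the difference between the IOP ages 1.89, against 1.08 with all libraries. Ptx3 entered these tests only through the 18mo IOP libraries. In the repeated series it stood at 0.289 and 0.394 FPKM in control and 0.474 and 0.407 FPKM in 4xIOP libraries, too low for the test, and the ratio of mean FPKM was 1.29.

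Emp1, a tetraspan membrane protein of epithelia (chr6:135362931-135383173, plus strand), varied more between the libraries of a group than any other member in 5 of the 6 groups, Ptx3 being the exception in 18mo IOP. The 3mo control libraries held 3.13 and 13.4 FPKM and the 3mo IOP libraries 7.44 and 1.70 FPKM. At 18 months it stood at 0.647 and 1.17 FPKM in control and at 2.50 and 9.78 FPKM in IOP libraries. The repeated series had 0.463 and 0.104 FPKM in control and 1.03 and 1.86 FPKM in 4xIOP libraries. The order of the groups thus differed between the ages, with control and IOP overlapping at 3 months and not at 18 months. Emp1 was called lower with age (-2.36 ± 0.83, adjusted p = 0.0468). The call was lost without the 3mo control replicate 2 (change -1.39) or either 18mo control library (-2.09 and -2.63). It was also lost with voom (adjusted p = 0.0786), no filter (adjusted p = 0.102), a pseudocount of 1 or no mean-variance trend. The change with IOP was -0.77 ± 0.83 at 3 months (adjusted p = 0.979), which became 0.20 without the 3mo control replicate 2 and 0.16 without the 3mo IOP replicate 2, and 2.00 ± 0.83 at 18 months (adjusted p = 0.485). The difference between these changes was 2.77 ± 1.17 (unadjusted p = 0.0447, adjusted p = 0.999916). After 4 elevations Emp1 was called higher (1.32 ± 0.30, adjusted p = 0.0144), in a test it entered only through the 4xIOP libraries (mean of 0.284 FPKM without them), and the call was lost without control replicate 2 (0.98, adjusted p = 0.115), 4xIOP replicate 1 (1.63, adjusted p = 0.0697) or 4xIOP replicate 2 (1.00, adjusted p = 0.214).

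Keratins of the ocular surface were present in some of these libraries. Krt12, the keratin of corneal epithelium, stood at 1.89 and 25.4 FPKM in the 3mo control libraries and Krt5, a keratin of basal epithelium, at 0.889 and 10.6 FPKM. In both cases the high library was replicate 2, which was also the highest library for Emp1. In the 18mo IOP libraries Krt12 was at 0.020 and 0 FPKM and Krt5 at 0 in both, while Emp1 reached 9.78 FPKM. The library higher in Emp1 was also the higher in Krt5 in 3mo IOP (2.51 and 0.350 FPKM of Krt5), 4xIOP control (0.413 and 0.075) and 4xIOP (0 and 0.593). In 18mo control it was the lower in Krt5 (2.29 and 0 FPKM). Of the 4 tested keratins, Krt12 (-2.99 ± 0.99, adjusted p = 0.0390) and Krt13 (-2.48 ± 0.72, adjusted p = 0.0247) were called lower at 18 months between controls (1 by voom), and Krt13 entered the test only through the 3mo control libraries. The summed level of the 5 keratins was 4.74 to 43.4 FPKM in 3mo control and 0.041 to 5.18 FPKM in 18mo control libraries. The part of surface epithelium in the age difference of Emp1 was not tested.

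**Figure D3:**
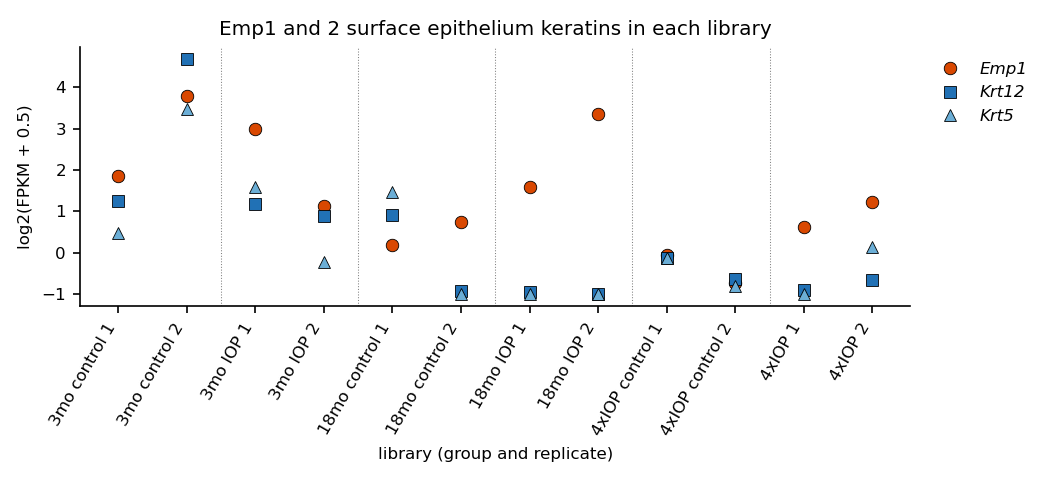
Emp1, Krt12 and Krt5 as log2(FPKM + 0.5) in each of the 12 libraries, named by group and replicate; dotted lines separate the groups. All 3 genes are highest in 3mo control replicate 2, and in both 18mo IOP libraries the keratins lie at the bottom of the axis while Emp1 stands at 2.50 and 9.78 FPKM.

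Tm4sf1, a tetraspanin-like protein of endothelium (chr3:57285611-57301988, minus strand), stayed within a narrow range. Its 12 values lay between 0.496 and 1.62 FPKM. The 3mo libraries held 0.496 and 1.08 FPKM in control and 1.23 and 1.10 FPKM after IOP, and the 18mo libraries 1.19 and 1.49 FPKM in control and 1.55 and 0.907 FPKM after IOP. It was called in no comparison. The changes were 0.41 ± 0.29 at 3 months (adjusted p = 0.896), -0.11 ± 0.29 at 18 months (95% interval -0.78 to 0.56, adjusted p = 0.999) and 0.54 ± 0.29 between the control ages (adjusted p = 0.155). The repeated series gave 0.952 and 0.508 FPKM in control and 1.41 and 1.62 FPKM in 4xIOP libraries, a change of 0.73 ± 0.25 (adjusted p = 0.109).

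No member was called for a difference in the IOP response between 18 and 3 months, and neither was any other gene of the table (0% of 13731, limma). At an unadjusted p under 0.05 there were 2 members, Cd44 and Emp1, and 1.59% of all genes (218), and voom on the recovered reads called none. In both single-IOP treated groups most members differed in the same direction between the 2 libraries. Replicate 2 of the 18mo IOP group was the higher library for 7 of 8 members, and replicate 1 of the 3mo IOP group for 7 of 8. The share of all genes higher in the same library was not counted, so this is not read as a trait of the members.

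Other genes reported for reactive astrocytes were followed as lists. Where list genes are counted at an unadjusted p under 0.05, the share of all tested genes was 8.51% at 3 months, 9.45% at 18 months and 15.4% after 4 elevations. Of 8 tested pan-reactive genes outside the 8 members, 3 were called higher after a single elevation at 3 months, 3 at 18 months and 7 after 4 elevations, with none lower. Voom called 0, 0 and 7. In the repeated series Steap4, Timp1 and Cxcl10 entered the test only through the 4xIOP libraries, and 4 of the other 5 were called. At 3 months these were Timp1, an inhibitor of matrix proteases (4.58 ± 0.48, adjusted p = 0.0185), Serpina3n, a secreted protease inhibitor (4.35 ± 0.56, adjusted p = 0.0319) and Osmr, the oncostatin M receptor (1.56 ± 0.22, adjusted p = 0.0325). At 18 months they were Timp1 (4.09 ± 0.48), the metalloreductase Steap4 (3.40 ± 0.43) and Osmr (1.78 ± 0.22), each with an adjusted p of 0.0443. After 4 elevations the largest change was that of Lcn2, the siderophore-binding protein lipocalin 2, which went from 1.43 and 0.951 FPKM to 284 and 825 FPKM (8.18 ± 0.40, adjusted p = 8.20e-08), followed by Serpina3n (7.03 ± 0.38) and Timp1 (6.01 ± 0.33), and the smallest called was that of the chemokine Cxcl10 (1.97 ± 0.32). The median log2 fold changes over all tested genes of the list were 2.24, 2.98 and 3.99, the last with Steap4, Timp1 and Cxcl10 included. Over all tested members, with those that entered only through treated libraries included, they were 0.80, 1.66 and 1.39.

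The A1 list, genes reported after inflammatory stimulation, had 6 of 11 tested genes called higher at 3 months, 0 of 11 at 18 months and 9 of 11 after 4 elevations, and voom called 0, 0 and 9. Iigp1 entered the test at 3 months, and Ggta1, Iigp1 and Ugt1a1 after 4 elevations, only through the treated libraries, and without them 5 of 10 and 6 of 8 were called. Serping1, the C1 inhibitor of complement, had the largest called change at 3 months (2.55 ± 0.35, adjusted p = 0.0325) and after 4 elevations (4.13 ± 0.22, adjusted p = 1.28e-07). At an unadjusted p under 0.05 (limma) there were 7 of the 11 at 3 months and 8 at 18 months. The medians of the list, with Iigp1 included, were 1.76 and 1.08. The difference in response between the ages was called for 0 of 11. There 1 had an unadjusted p under 0.05 (limma, 1.59% of all genes), and the median was -0.20. Already between the untreated ages 5 of 11 were called higher at 18 months, led by the class I molecules H2-T23 (1.76 ± 0.27) and H2-D1 (1.74 ± 0.28). The A2 list, genes reported after ischaemia, to which Ptx3, Emp1 and Tm4sf1 are usually counted, had 0 of 6 called after a single elevation at either age, with 1 and 5 at an unadjusted p under 0.05 (limma), and 3 of 5 after 4 elevations. Those 3 were Tgm1, a transglutaminase (2.49 ± 0.24), the endotoxin receptor Cd14 (1.61 ± 0.23) and S100a10 (1.49 ± 0.37), of which Tgm1 and Cd14 entered the test only through the 4xIOP libraries. Voom called 0 of 6 at either age.

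Signals that act on gliosis included the cytokine and endothelin pathways. The list of these shares Osmr with the pan-reactive list and Sphk1 with the A2 list, so both are counted again here. Of 16 tested genes in the single-IOP series, 3 were called higher at 3 months and 2 at 18 months, and of 14 tested in the repeated series 7 were called higher. Voom called 0, 0 and 7. Edn2 and Socs3 entered the test of the repeated series only through the 4xIOP libraries, and 5 of the other 12 were called there. The gene with the largest change in all 3 was Edn2, an endothelin ligand, with 3.85 ± 0.40 (adjusted p = 0.0185), 3.13 ± 0.40 (adjusted p = 0.0443) and 5.43 ± 0.31 (adjusted p = 2.10e-07). Socs3, the feedback inhibitor of STAT3 signalling, was called at 3 months (2.42 ± 0.36) and after 4 elevations (4.19 ± 0.20). Between the untreated ages 9 of 16 were called higher, led by Socs3 (3.39 ± 0.36), Edn2 (2.90 ± 0.40) and the ciliary neurotrophic factor receptor Cntfr (2.24 ± 0.24). Other intermediate filament and linker genes, the neurofilaments and lamins among them, gave 0 of 9 called in each of the 3 IOP comparisons, with 2, 3 and 1 at an unadjusted p under 0.05 (limma). Voom called 0 of 9 in each as well. Their median log2 fold changes were 0.26, -0.0033 and -0.08, where the changes of Gfap, Vim and Nes were 0.87 or more. Between the untreated ages the neurofilament genes Nefl (-3.03 ± 0.47) and Nefh (-1.02 ± 0.31) were called lower and the linker Plec (1.15 ± 0.27) higher.

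**Figure D4:**
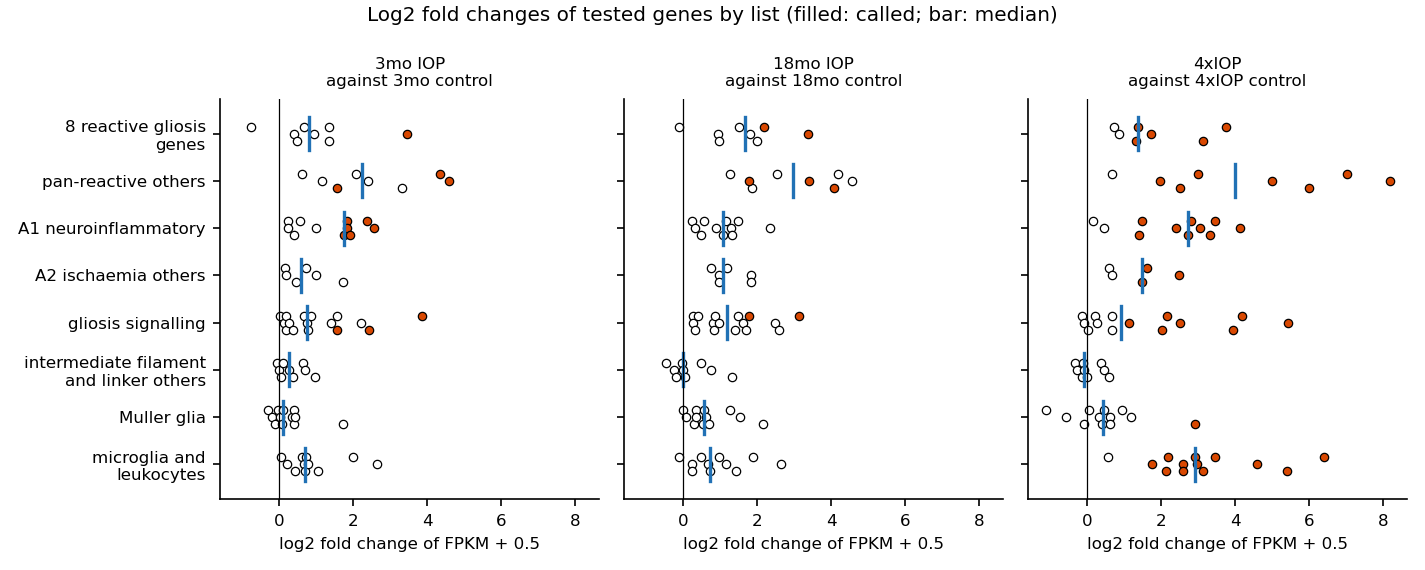
Log2 fold changes of FPKM + 0.5 of the tested genes of each list in the 3 IOP comparisons. Filled points were called, open points were not, and bars are medians. The pan-reactive genes have medians of 2.24, 2.98 and 3.99, the Muller glia markers 0.10, 0.57 and 0.44. The 3.99 includes Steap4, Timp1 and Cxcl10, which entered that test only through the 4xIOP libraries.

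Markers of the cells that can hold these transcripts moved with some of the comparisons. Of 12 Muller glia markers, 0 were called after a single elevation at 3 months and 0 at 18 months, with 1 and 7 at an unadjusted p under 0.05 (limma) and 0 called by voom, and 1 was called after 4 elevations (Crym), where voom called 4. Their summed level was 825 to 1201 FPKM in 3mo control, 952 to 1298 in 3mo IOP, 1801 to 2230 in 18mo control and 3151 to 3336 in 18mo IOP libraries, and 1043 to 1146 in 4xIOP control against 1124 to 1231 in 4xIOP libraries. Between the untreated ages 6 of the 12 were called higher at 18 months, led by Kcnj10 (1.93 ± 0.22) and Sox9 (1.66 ± 0.37). All 8 endothelial markers were called higher at 18 months in the same comparison, and their summed level was 12.2 to 15.6 FPKM in 3mo control and 73.6 to 78.0 FPKM in 18mo control libraries. Of 11 microglia and leukocyte markers, 4 were called higher between the untreated ages (Cx3cr1, Csf1r, Itgam and Cd68, voom 6), led by Csf1r (2.21 ± 0.45). The part of vessels, leukocytes and Muller glia content in the age differences of Nes, S1pr3 and Cd44 was not tested. Of 13 microglia and leukocyte markers, 12 were called higher after 4 elevations, 8 of which entered the test only through the 4xIOP libraries (4 of the other 5 were called), with a summed level of 5.07 to 5.45 FPKM in control and 195 to 201 FPKM in 4xIOP libraries. Lyz2, a lysozyme of myeloid cells, went from 0.837 and 0.764 FPKM to 113 and 107 FPKM (6.41 ± 0.22, adjusted p = 4.99e-09). The share of Cd44 that these cells held was not tested. At 3 months their summed level was 12.7 to 14.4 FPKM in control and 33.2 to 96.0 FPKM in IOP libraries, and at 18 months 28.9 to 32.8 FPKM and 76.8 to 103 FPKM, with 0 of 11 called at either age by limma or voom and 4 and 7 at an unadjusted p under 0.05, and 3 of the 11 (Ptprc, S100a8 and S100a9), all among these 7, entered the test only through the 18mo IOP libraries.

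Of 6 tested astrocyte markers, 2 were called higher after 4 elevations (Aldh1l1 and Slc14a1), and 0 after a single elevation by limma or voom, with 2 at 3 months and 4 at 18 months at an unadjusted p under 0.05. Between the control ages Aldh1l1 was called higher (1.54 ± 0.21) and S100b lower (-1.26 ± 0.32). Pax2, the defining transcription factor of retinal astrocytes, lay between 0.013 and 0.199 FPKM in the 12 libraries, and Mog, a marker of optic nerve oligodendrocytes, was at 0 in 10 of the 12. Of 4 tested oligodendrocyte markers, Mbp was called higher (1.14 ± 0.22) and Ermn lower (-1.95 ± 0.35, tested only through 3mo control libraries) between the control ages, and of 3 tested in the repeated series Cnp was called higher after 4 elevations (1.06 ± 0.22). Rod markers had a summed level of 9055 to 9456 FPKM in 4xIOP control and 4444 to 6701 FPKM in 4xIOP libraries, with 0 of 6 called (limma, 2 at an unadjusted p under 0.05 and 3 called by voom). Lens markers had a summed level of 0.456 to 4.30 FPKM in control and 41.5 to 93.7 FPKM in 4xIOP libraries, and 4 of 4 tested were called higher, of which Cryba1 and Mip entered the test only through the 4xIOP libraries. In 3mo IOP retinas the smooth muscle genes Acta2 (3.54 ± 0.40) and Tagln (3.21 ± 0.39) were called higher than in control, and the summed level of fibroblast markers was 3.39 to 4.26 FPKM in 3mo control and 15.3 to 54.2 FPKM in 3mo IOP libraries, with 1 of 4 tested called (Lum, lumican, which entered the test only through the 3mo IOP libraries). Voom called 0 of 6 smooth muscle and pericyte markers and 0 of 4 fibroblast markers there. Blood markers ranged from 19.5 to 425.6 FPKM over the single-IOP libraries and 0 of 5 were called after a single elevation at either age (1 at an unadjusted p under 0.05, at 18 months, and 0 by voom). Ganglion cell markers were lower at 18 months, with 5 of 6 called between controls, as were 6 of 7 markers of the pigment epithelium. After 4 elevations 3 of 4 tested pigment epithelium markers were called lower (Rpe65, Ttr and Rgr, of which Rpe65 and Rgr entered the test only through the control libraries), with a summed level of 119.8 to 143 FPKM in 4xIOP control and 61.0 to 85.3 FPKM in 4xIOP libraries, and at 3 months Mlana was called higher after IOP (3.59 ± 0.53, not called by voom). The part of these shifts in the values of the 8 genes was not tested.

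The genes whose pattern over the 12 libraries was most like that of a member were found by the root mean square (RMS) difference of log2(FPKM + 0.5), each set relative to the mean of all control libraries of its own series, among 13052 genes tested in both series. The nearest to Gfap were Bcl3, an IkB family protein (0.47), the transcription factor Cebpd (0.58), A2m, alpha-2-macroglobulin (0.60), Serping1 (0.62) and the chemokine Ccl2 (0.67), where the median over all genes was 2.51. Bcl3 stood at 0.079 and 0.207 FPKM in the 3mo control libraries. After IOP it reached 5.31 and 3.16 FPKM at 3 months, 2.85 and 16.0 FPKM at 18 months and 6.68 and 4.88 FPKM in the 4xIOP libraries. The nearest to Cd44 were Osmr (0.35) and the placental growth factor gene Pgf (0.37), against a median of 1.74. The nearest to S1pr3 were Plpp3 (0.24) and Aldh1l1 (0.25), and to Vim 9130015L21Rik (0.17) and Hsd17b2 (0.22). For Ptx3 they were Rnd3 (0.31) and Hbegf (0.33), for Emp1 Mt3 (0.63) and Fxyd3 (0.66), and for Tm4sf1 Lmo2 (0.12) and Dok7 (0.19). Low RMS differences are easier to reach for genes that vary little, such as Tm4sf1 (median of all genes 0.51). Among the members the closest pair was Nes and S1pr3 (0.40) and the most distant was Gfap and Tm4sf1 (2.32).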

How the data were processed

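Bulk retina RNA was poly(A)-selected and made into strand-specific libraries. The authors aligned reads to mm10 with STAR 2.7.8a and counted uniquely mapped tags in exons with HOMER, 1 isoform per locus, in a separate run for each series. The authors deposited FPKM, scaled to the length of the counted isoform and to each library's tag total, and state no other scaling. FPKM times length came to whole reads (100% within 0.1 reads, over 2540 to 3250 values of short transcripts with few reads per library), which gave depths between 39766241 and 59455027 tags. Of these, 44.2% to 53.7% lay in exons in the repeated series and 66.0% to 71.5% in the single-IOP series. Sequencing batches are not given in the sources used here. The p-values measure only the spread between the 2 libraries of a group, pooled over all groups of a fit. This pooled spread was also drawn towards that of genes of similar level. In the single-IOP series a p-value therefore also depends on the spread in groups outside its comparison.

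Genes averaging 0.5 FPKM or more over a series (13731 and 13718) were tested on log2(FPKM + 0.5) using limma 3.58.1 in R 4.3.3 (lmFit, then eBayes with trend), the 4 single-IOP groups together and the repeated series alone, with Benjamini-Hochberg adjustment over all tested genes. The interaction was called by the adjusted p alone. Where a library was left out, the remaining one was assumed to vary like the other groups. The same-numbered libraries did not deviate together (correlations between -0.53 and -0.12), so no pairing was used. Promoter sequences came from the RefSeq table (GRCm38.p6), which held 1 entry for each member and 2 for Emp1, of which the one at the listed start was used.

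The members, 5 lists of reactive genes, 13 lists of cell markers, motifs and tests were chosen with earlier results of these data known. Some genes are in several lists, Osmr, Sphk1, Nefl and Rlbp1 among them. The text names the members, at most the 3 largest and the smallest called changes of a list, and the nearest genes to each member, those to Nes not being reported here. Genes named for how they entered a test, and single cell markers, were chosen after their values were seen, as was the broader NF-kB consensus. The fits were tested on simulated data.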

Additional observations from a re-analysis of the deposited data

How the results depend on the processing

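Each comparison was recomputed with other pseudocounts (0.1 and 1), without the filter or with one of 2 FPKM, with quantile normalization or median-of-ratios scaling, with each library's trend over transcript length removed, without the mean-variance trend, with voom on recovered reads, with a replicate block, with only the 2 groups compared, by the adjusted p alone, and without each library. At 3 months, 1 member was called after a single elevation, 2 with a pseudocount of 0.1 or the length trend removed, 0 with no filter, quantile normalization or voom, and 0 to 1 without a library. At 18 months 2 were called, 1 with quantile normalization, 0 with a pseudocount of 0.1, no filter, median-of-ratios, voom or only the 2 groups. The count at 18 months also changed when a library was left out, and it included Ptx3, which entered the test only through the 18mo IOP libraries. After 4 elevations 5 were called, 3 with no filter, 3 without any one library, 4 with a pseudocount of 1, either other scaling or a filter of 2 FPKM (4 tested), 6 with a pseudocount of 0.1 or the adjusted p alone, and 7 with voom. Between the control ages 4 were called, 1 with a pseudocount of 1, 2 with the length trend removed, 3 with either other scaling, no filter, no mean-variance trend or voom, and 1 to 4 without a library. Between the IOP ages 3 were called, 4 with quantile normalization, and 2 with the length trend removed or a filter of 2 FPKM (5 tested). This count also changed when a library was left out, and Ptx3, which entered the test only through the 18mo IOP libraries, was counted there. The interaction called 0 members under every alternative run. The cause of these shifts was not tested.

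Over all genes and these alternatives, calls ranged from 1176 to 6297 (control ages), 722 to 5846 (IOP ages), 0 to 257 (3mo IOP), 0 to 144 (18mo IOP) and 475 to 1090 (4xIOP), where the reported fits gave 3185, 3000, 79, 17 and 843, and the interaction called at most 2. At 3 months 0 genes were called without control replicate 1 or IOP replicate 1 and 7 without IOP replicate 2. At 18 months 0 were called without either control and 6 without IOP replicate 2.

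With the replicate block (libraries of the same number paired), 0 members were called at 18 months, where the adjusted p was 0.127 for Cd44 and 0.0935 for Gfap, and no other call of a member changed. The block left 20 calls among all genes at 3 months and 0 at 18 months. Control and IOP libraries of the same number deviated in opposite directions (correlations -0.275 at 3 months, -0.53 at 18 months and -0.29 after 4 elevations). A crossed block, chosen after seeing the data, called 3, 5 and 5 members, and 298, 298 and 780 genes higher with 14, 8 and 114 lower.

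Some values of members that were not called changed sign. Tm4sf1 between the IOP ages, 0.03, was -0.036 with median-of-ratios, -0.039 with quantile normalization, -0.14 with the length trend removed and -0.24 to 0.30 without a library. The interaction of Nes, 0.03, was -0.61 with a pseudocount of 0.1, -0.011 with median-of-ratios, -0.030 with the length trend removed, -1.20 with voom and -0.50 to 0.56 without a library. That of Gfap, -0.07, was 0.033 with a pseudocount of 1, 0.46 with quantile normalization and -0.81 to 0.66 without a library, and that of Vim was -0.35 to 0.66. Without a library, Vim was -0.13 to 0.78 between the control ages and -0.019 to 0.99 between the IOP ages, Emp1 was -0.52 to 1.34 between the IOP ages and -1.74 to 0.20 at 3 months, and Tm4sf1 was -0.38 to 0.16 at 18 months.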
